A study of Sus scrofa with 6 samples.

Results

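The small heat shock proteins were followed in porcine granulosa cells (GCs), the somatic cells that surround the oocyte in the follicle. The members were set as 8 names, namely *HSPB1*, *HSPB2*, *HSPB3*, *HSPB6*, *HSPB7*, *HSPB8*, *CRYAB* and the unnamed locus ENSSSCG00000028568, which lies near *HSPB1* and has the same length. Of these 8, 4 were tied to a row by name or identifier, out of 17950 genes in the table. They were *HSPB1* (ENSSSCG00000024482), ENSSSCG00000028568, *HSPB6* (ENSSSCG00000023498) and *HSPB8* (ENSSSCG00000009844), and all 4 had a mean of at least 1 FPKM (fragments scaled to transcript length and to the number of fragments mapped) over both groups. The other 4 members, *HSPB2*, *HSPB3*, *HSPB7* and *CRYAB*, had no row under these names and were not analysed here.

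The cells came from the follicular fluid of pre-pubertal Landrace gilts and were infected for 72 h with a lentivirus. In the pLVX-*RBP4* group the virus carried porcine *RBP4*, which encodes the plasma carrier of retinol, and in the CTRL group it carried the empty pLVX-IRES-ZsGreen vector, so that both groups expressed the green marker. Each group had 3 libraries, and the authors' table holds 1 FPKM value per gene and group. The spread between the libraries is therefore not known, no test was possible, and all values given are those the authors computed for a whole group. The infected cultures were sequenced as a whole, so that more cells with an RNA and more RNA per cell cannot be told apart. *RBP4* itself had 1.10 FPKM in CTRL cells and 92.3 FPKM in pLVX-*RBP4* cells. The members were chosen by the group FPKM values of *HSPB1* and ENSSSCG00000028568 in these libraries, which were known to be higher with *RBP4*, and their differences are given as a description.

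Small heat shock proteins share an alpha-crystallin domain and assemble into oligomers. They hold unfolding proteins in solution without the use of ATP, until chaperones of the HSP70 system refold them or they are degraded. HSPB1 (also known as HSP27) is made in many tissues, is phosphorylated by MAPKAP kinases downstream of p38, and associates with actin filaments. HSPB8 acts with the co-chaperone BAG3 in the removal of damaged proteins by autophagy. HSPB6 (also known as HSP20) is best known from smooth and cardiac muscle.

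*HSPB1* lay on chromosome 3 of Sscrofa10.2, from 9925862 to 9927499, and ENSSSCG00000028568 from 10049288 to 10050925 on the same chromosome. Both spans were 1638 bp long, and 121.8 kb lay between them. In the RefSeq gene table of the later assembly Sscrofa11.1, 1 gene was named *HSPB1*. How reads that match both loci were divided between them is not known from the table, and the values of each locus are uncertain in this respect. The following are the primers used to measure *HSPB1* by RT-qPCR, shown because they are the oligonucleotides by which this gene was measured apart from sequencing. They are written 5′ to 3′, and each is 20 bases long.
HSPB1 forward: tccctggacgtcaaccactt
HSPB1 reverse: aaacaccgggaaatgaagcc
The paper counts *HSPB1* among its upregulated genes and reports that RT-qPCR gave the same direction. Which of the 2 loci the primers match was not analysed here.

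*HSPB1* had 33.4 FPKM in CTRL cells and 160.0 FPKM in pLVX-*RBP4* cells. ENSSSCG00000028568 had 39.6 FPKM and 166.3 FPKM. Both loci were thus higher in the pLVX-*RBP4* group, 4.80-fold for *HSPB1* and 4.20-fold for the unnamed locus. In FPKM the 2 differences were nearly equal, at 126.6 for *HSPB1* and 126.8 for ENSSSCG00000028568. The ratio of the *HSPB1* level to that of ENSSSCG00000028568 was 0.843 in CTRL cells and 0.962 in pLVX-*RBP4* cells.

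The other members had lower levels, and both were lower in the pLVX-*RBP4* group. *HSPB8* had 10.5 FPKM in CTRL cells and 8.39 FPKM in pLVX-*RBP4* cells, a ratio of 0.796. *HSPB6* had 5.62 FPKM and 5.06 FPKM, a ratio of 0.900. Whether these differences exceed the spread between libraries is not known.

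**Figure D1:**
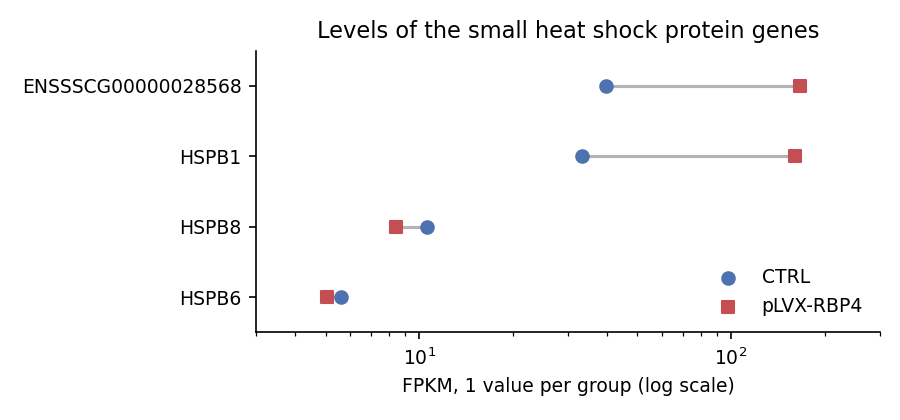
FPKM (log scale) of the 4 small heat shock protein genes found, with 1 value per group; circles stand for CTRL, squares for pLVX-*RBP4*, and lines join the values of a gene. *HSPB1* and ENSSSCG00000028568 lie at 160.0 and 166.3 FPKM in the pLVX-*RBP4* group, far to the right of their CTRL values, while the points of *HSPB6* and *HSPB8* lie close together.

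FPKM is scaled to the length of the transcript, so the levels of different genes can be set side by side. The order of the 4 levels was the same in both groups, with ENSSSCG00000028568 first, followed by *HSPB1*, *HSPB8* and *HSPB6*. The level of *HSPB1* was 3.17 times that of *HSPB8* in CTRL cells and 19.1 times in pLVX-*RBP4* cells. Against *HSPB6* these ratios were 5.93 and 31.6. The 4 genes summed to 89.1 FPKM in CTRL cells and 339.8 FPKM in pLVX-*RBP4* cells, of which *HSPB1* and ENSSSCG00000028568 together made up 81.9% and 96.0%. The sum of *HSPB6* and *HSPB8* was 16.2 FPKM and 13.4 FPKM. In these cells the RNA of the family was therefore mostly that of *HSPB1* and ENSSSCG00000028568 in both groups, as far as its members were found.

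Each gene was also placed among all 17950 genes. Ranked by level, *HSPB1* was number 2927 in CTRL cells and number 678 in pLVX-*RBP4* cells. ENSSSCG00000028568 was number 2537 and number 649. *HSPB8* was number 6709 and number 7543, and *HSPB6* was number 8821 and number 9141.

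Differences were next computed on the log2(FPKM + 1) scale, which understates the change of weakly expressed genes. They were compared with those of all 12382 genes with a mean of at least 1 FPKM. The differences of *HSPB1* and ENSSSCG00000028568 were 2.23 and 2.04, so 2 of the 4 members were higher by 2-fold or more, against 0.493% of all genes. Nothing is read from this count, since these values chose the members. Ranked by difference among the 12382 genes, *HSPB1* was number 27 and ENSSSCG00000028568 number 30, and among the 12329 with neither value at 0 they were number 4 and number 5, ranks that use the same values. The difference was -0.30 for *HSPB8* and -0.13 for *HSPB6*. Lower values were found for 49.8% of all genes, and no member was at least 2-fold lower, against 0.46% of all genes. A difference as low as that of *HSPB8* or lower was found for 798 genes (6.44%), and for *HSPB6* this share was 24.0%. The 5th and 95th percentiles of the differences of all genes were -0.33 and 0.37, and both *HSPB6* and *HSPB8* lay between them.

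**Figure D2:**
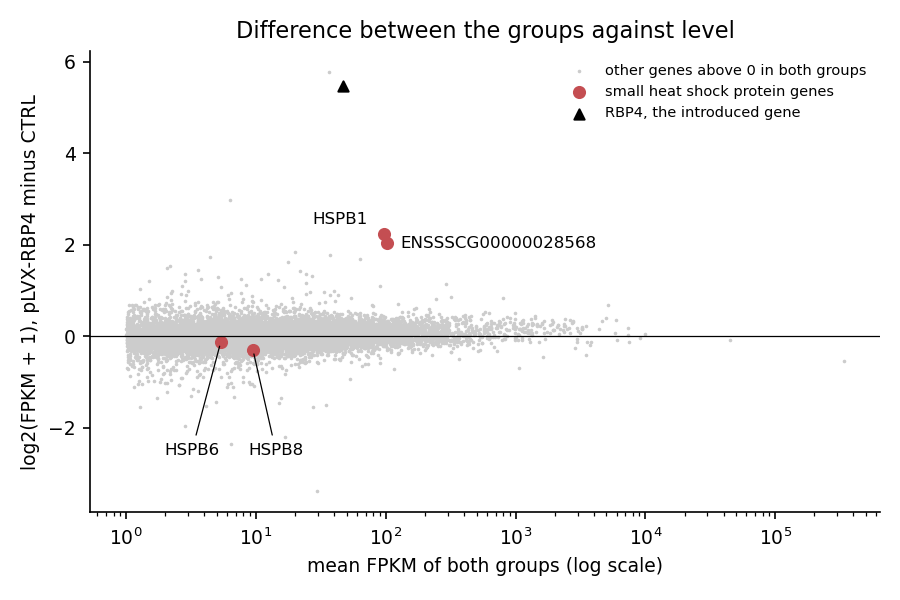
Difference of log2(FPKM + 1), pLVX-*RBP4* minus CTRL, against the mean FPKM of both groups (log scale) for 12329 genes with a mean of at least 1 FPKM and neither value at 0. *HSPB1* (2.23) and ENSSSCG00000028568 (2.04), chosen by these values, lie above most grey points. Some grey points lie higher, such as ENSSSCG00000008882 (5.78). *HSPB6* (-0.13) and *HSPB8* (-0.30) lie within the grey points, and the triangle is *RBP4* (5.47).

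Chaperone families, with regulators and binding partners of small heat shock proteins, were examined by lists. Where a pair of FPKM values is given for a gene, that of CTRL cells comes first. No gene of these lists was at least 2-fold higher or lower. Over all lists there were 70 distinct genes with a mean of at least 1 FPKM, and 53 of them (75.7%) had the higher value in pLVX-*RBP4* cells, against 50.2% of all genes, with differences of at most 0.59. These directions depend in part on the scaling. The values of both groups were scaled to a common median, upper quartile or sum, or to a common sum without the gene of highest value. Of the 53, 26 were higher under each scaling, and 13 of the lower genes were lower under each. The share of all genes that kept their direction was not computed, nor the share of all genes higher after each rescaling. Nothing is therefore read from these counts or from the rescaled counts of single lists below. The median of all genes moved as well, from 0.0014 to -0.033 with the upper quartile and to -0.11 with the sum without the gene of highest value. List medians under these scalings are to be read beside these values.

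The HSP70 and HSP110 list held a family of which some members take over proteins from small heat shock proteins. Others, such as *HYOU1*, work elsewhere in the cell. Of 16 genes written, 11 were found, and *HSPA1A*, *HSPA1B* and *HSPA6* were among those with no row under their names. Of the 10 with a mean of at least 1 FPKM, 8 were higher, with a median difference of 0.18 against 0.0014 for all genes. After rescaling to a common sum without the gene of highest value, these medians were 0.064 and -0.11. The constitutive HSP70 gene *HSPA8* had 40.5 FPKM in CTRL cells and 45.4 FPKM in pLVX-*RBP4* cells. The row named *HSPA1L*, another HSP70 gene, had 253.7 and 248.9 FPKM (-0.03), and its direction changed with the scaling. *HSPA1L* is named after its values were seen. *HSPA4L*, of the HSP110 group, had the highest difference of this list, 0.29, with 4.44 and 5.65 FPKM, and *HYOU1*, a chaperone of the endoplasmic reticulum, the lowest, -0.09, with 116.1 and 109.4 FPKM. The ratio of *HSPB1* to its CTRL value, 4.80, by which it was chosen, stands beside a ratio of 1.12 for *HSPA8*.

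The HSP40 genes encode the J-domain proteins that stimulate HSP70, and 9 of 11 were higher, with a median of 0.094 that turned to -0.023 after rescaling to a common sum without the gene of highest value. *DNAJA1* had 98.4 and 116.0 FPKM (0.23), the highest difference of the list. *DNAJB5* had 3.60 and 3.37 FPKM (-0.07), the lowest difference. *DNAJB1*, a classic gene of the heat shock response, had 29.0 and 30.5 FPKM, a difference of 0.07 that turned negative under the same rescaling. All 13 genes of the HSP90 and chaperonin list were higher, with a median of 0.12. After that rescaling 7 of the 13 were higher, with a median of 0.00064 against -0.11 for all genes. The highest difference of this list belonged to the mitochondrial co-chaperonin *HSPE1*, with 176.6 and 227.1 FPKM (0.36), and the lowest to *HSP90AB1*, a cytosolic HSP90, with 283.0 and 287.1 FPKM (0.02).

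Of the BAG proteins and other co-chaperones, 9 of 12 were higher, with a median of 0.024 that was -0.013 after upper quartile scaling and -0.092 after the rescaling without the gene of highest value. *BAG3*, the partner of HSPB8, had 41.1 FPKM in CTRL cells and 38.6 FPKM in pLVX-*RBP4* cells (-0.09), and was lower under each scaling, as was *HSPB8*. The level of *BAG3* was 3.90 times that of *HSPB8* in CTRL cells and 4.61 times in pLVX-*RBP4* cells. *STUB1*, the ubiquitin ligase of the same degradation pathway, had 103.1 and 108.5 FPKM (0.07, negative after the common sum without the gene of highest value). *FKBP4*, an HSP90 co-chaperone, had the highest difference (32.0 and 35.8 FPKM, 0.16) and *BAG6*, a chaperone for proteins in transit to membranes, the lowest (82.5 and 76.0 FPKM, -0.12).

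Heat shock factors are the transcription factors that induce *HSPB1* and other chaperone genes under proteotoxic stress. *HSF1* had 45.3 FPKM in CTRL cells and 46.8 FPKM in pLVX-*RBP4* cells, and *HSF2* had 12.5 and 12.9 FPKM. Both differences, 0.05 and 0.04, were negative after rescaling to a common sum without the gene of highest value. Of 19 genes written down as induced by heat shock factors, 16 were found, and 15 had a mean of at least 1 FPKM. Some of them are also in the lists above. *HSPA1A*, *HSPA1B* and *SERPINH1* had no row under these names, so the list lacks these genes of the heat shock response. Of the 15, 14 were higher, with a median of 0.16. After the rescaling without the gene of highest value 9 of the 15 were higher, with a median of 0.045. The largest difference in this list was 0.59, for *CACYBP*, which encodes a protein that binds S100 proteins and a ubiquitin ligase (16.0 and 24.6 FPKM), and the lowest was that of *BAG3*. No gene in this list reached the differences of *HSPB1* and ENSSSCG00000028568. Nothing is read from this, since the members were chosen by the values of these loci.

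**Figure D3:**
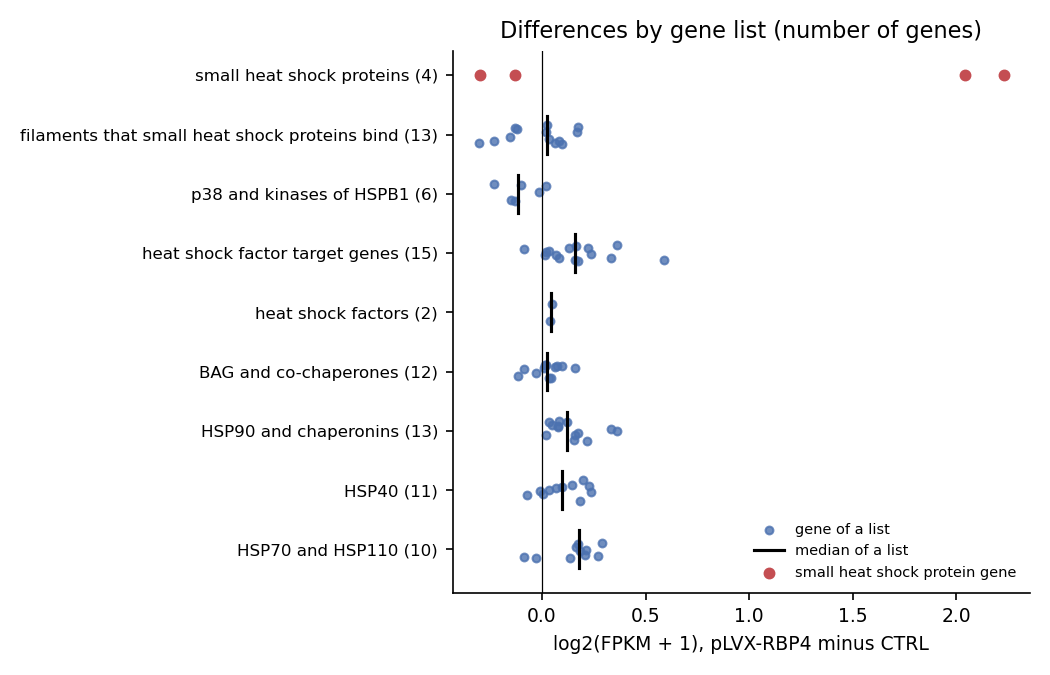
Difference of log2(FPKM + 1), pLVX-*RBP4* minus CTRL, for each gene of the lists with a mean of at least 1 FPKM (blue points, black bars are list medians, numbers of genes in brackets) and for the small heat shock protein genes (red points). The genes of the lists lie at or below 0.59 and *HSPB1* and ENSSSCG00000028568, chosen by their values, above 2. Rescaling to a common sum without the gene of highest value turns the medians of the HSP40, BAG, heat shock factor and filament lists negative. It moves the median of all genes to -0.11.

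Of 11 genes written for p38 and the kinases of HSPB1, 7 were found, and 6 had a mean of at least 1 FPKM. Of these 6, 5 were lower in pLVX-*RBP4* cells, against 49.8% of all genes, and 1 was higher. The median difference was -0.12 and lay between -0.23 and -0.025 under the other scalings. All 6 differences lay between the 5th and 95th percentiles of all genes, -0.33 and 0.37. *MAPK14*, the only p38 kinase found, had 47.6 and 47.1 FPKM, and its direction changed with the scaling. *MAPKAPK2*, which encodes the main kinase of HSPB1, had 58.5 FPKM in CTRL cells and 54.4 FPKM in pLVX-*RBP4* cells (-0.10), and was lower under each scaling. *MAP3K5*, a stress kinase far upstream of p38, had the lowest difference (1.26 and 0.924 FPKM, -0.23), at a level near the limit of 1 FPKM. Another row named *MAP3K5*, with 0.108 and 0 FPKM, lay below this limit and was not counted. *MAPKAPK5*, a kinase related to *MAPKAPK2*, had the only positive difference as deposited (11.8 and 12.0 FPKM, 0.02), which was negative after upper quartile scaling. RNA levels do not show the activity of these kinases or the phosphorylation of HSPB1.

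The RNAs of filament proteins to which small heat shock proteins bind had small differences in both directions. Their levels in CTRL cells ran from 0.0383 FPKM for *KRT18* to 7780.4 FPKM for *ACTG1*. Of the 13 with a mean of at least 1 FPKM, 8 were higher and 5 lower. Their median was 0.025, and it was -0.013 after upper quartile scaling and -0.090 after the rescaling without the gene of highest value. *TPM2*, a tropomyosin, had the highest difference (1565.7 and 1767.2 FPKM, 0.17). *FLNC*, the filamin of muscle cells, had 32.9 and 27.8 FPKM (-0.23). It is named after its values were seen.

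Genes next to the members were compared by the order of genes in Sscrofa11.1. Of the 6 genes on either side of *HSPB1*, 3 were found with a mean of at least 1 FPKM, and their differences lay between -0.02 and 0.15. The highest of them was that of *MDH2*, a mitochondrial malate dehydrogenase (106.4 and 118.4 FPKM). For *HSPB6* the 3 neighbours found had differences from -0.15 to -0.06, and for *HSPB8* the 3 found had differences from -0.08 to 0.06. The difference of *HSPB8* (-0.30) lay below the range of its neighbours found, and that of *HSPB6* within the range of its own. That of *HSPB1* lay above the range of its neighbours found. Nothing is read from this, since *HSPB1* was chosen by this value. ENSSSCG00000028568 was not among the neighbours compared.

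Markers of granulosa cells were present in both groups. Of 13 written down, 7 were found by symbol, from *AMHR2* (1.22 FPKM in the CTRL group) to *CYP11A1*, the enzyme that starts steroid synthesis (672.9 FPKM). They summed to 823.6 FPKM in CTRL cells and 817.1 FPKM in pLVX-*RBP4* cells, mostly *CYP11A1*. Of the 7, 2 were higher and 5 lower, against 49.8% of all genes lower, with a median difference of -0.03. *FSHR* (-0.21) and *NR5A1* (-0.14) were lower under each scaling, and *FST* (0.26) was higher under each. Markers of other cells were also present. The 6 of 8 stromal and smooth muscle markers found summed to 847.8 and 929.6 FPKM, mostly *ACTA2*. Of the 5 with a mean of at least 1 FPKM, *ACTA2* and *DCN* were higher and *PDGFRA*, *PDGFRB* and *MYH11* lower, with a median difference of -0.09, and *ACTA2* turned lower after rescaling to a common sum without the gene of highest value. *DES*, the muscle filament desmin, was at 0.584 and 0.413 FPKM. The 3 of 4 leukocyte markers found summed to 47.2 and 53.7 FPKM, mostly *CD14*, and the 2 of 4 endothelial markers to 19.9 and 19.0 FPKM. *CD14* had 42.9 and 48.9 FPKM and *CD68* had 4.02 and 4.59 FPKM. *PTPRC*, the remaining leukocyte marker found, was lower in pLVX-*RBP4* cells and below 1 FPKM, at 0.229 and 0.166 FPKM. The only oocyte marker found of 4, *GDF9*, had 3.36 and 3.51 FPKM. The only theca marker found of 2, *INSL3*, was listed at 0 in CTRL cells against 0.292 FPKM in pLVX-*RBP4* cells, and none of 5 striated muscle markers was found. Their part in the difference of *HSPB1* was not tested.

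The differences of the 4 members were recomputed under other settings. *HSPB1* ranged from 2.11 to 2.30 and ENSSSCG00000028568 from 1.93 to 2.12. *HSPB8* ranged from -0.41 to -0.22, and *HSPB6* from -0.23 to -0.06. None of these settings turned a direction, and *HSPB1* and ENSSSCG00000028568 were at least 2-fold higher under each.

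**Figure D4:**
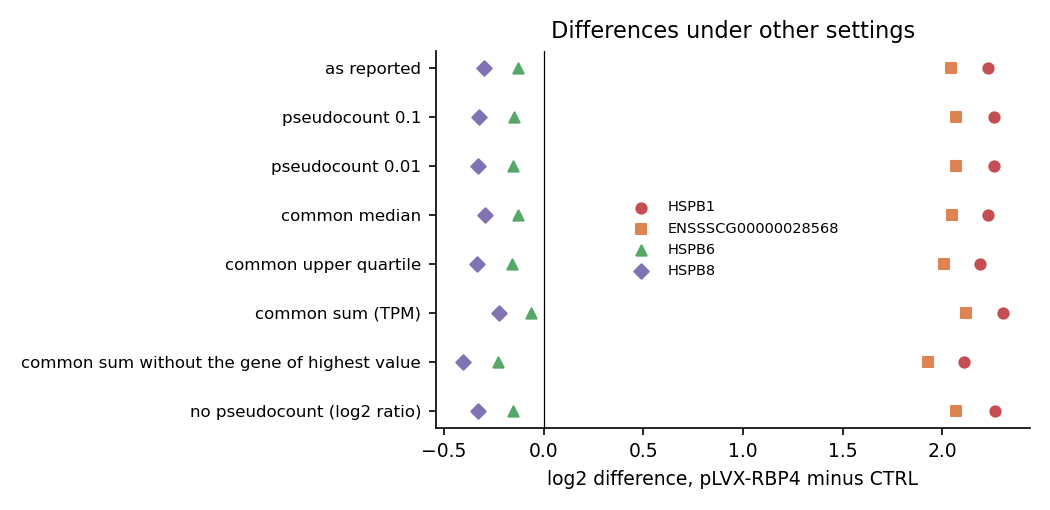
Log2 difference, pLVX-*RBP4* minus CTRL, of the 4 small heat shock protein genes (horizontal axis) as reported and under 7 other settings (vertical axis). Each gene keeps its side of 0, with *HSPB1* between 2.11 and 2.30 and *HSPB6* between -0.23 and -0.06.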

How the data were processed

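RNA of 6 libraries was sequenced, 3 for each of the groups pLVX-*RBP4* and CTRL, as titled in the labels. According to the methods, the authors aligned paired-end reads to Sscrofa10.2 with TopHat2 and compared groups with Cuffdiff of Cufflinks (versions and annotation release not given in the sources used here). The deposited values are FPKM computed by the authors, 1 per gene and group. Both columns were used, and 0 were left out. The number of fragments behind a value is not known, so no counting interval was computed. Values pooled over libraries allow no test, and the linear model planned for values per library was not fitted.

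From these, log2(FPKM + 1) was computed and CTRL subtracted from pLVX-*RBP4*. Genes with a mean of at least 1 FPKM were kept for counts. Symbols came from the study's supplementary gene lists for 765 genes, *HSPB1* among them, and from Ensembl gene names for 9992 more. The spans of *HSPB1* and ENSSSCG00000028568 came from the same lists, as did the primer sequences from the primer list. Neighbours were taken from RefSeq genes of Sscrofa11.1 by name.

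Members and lists were chosen with earlier results of these data known. Named were the members, *RBP4*, set partners, the highest and lowest difference of each list, and the 5 genes nearest to *HSPB1* in difference. The lowest difference of the filament list is not reported here. Alternatives were pseudocounts of 0.1 and 0.01, 4 scalings, no filter, a mean of at least 5 FPKM, and, added after seeing the data, no pseudocount. The calculation was tested on simulated data. Python 3.11.15, numpy 2.4.6 and pandas 2.3.3 were used.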

Additional observations from a re-analysis of the deposited data

How the results depend on the processing

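No paired analysis was possible because the table holds 1 value per gene and group, and for the same reason leaving out single libraries was not run. A log2 value was taken as moved from a change of 0.1, and a count from a change of over 1.5 times, limits set with earlier results known. By these limits 143 of 173 recomputed values did not move. None of the differences of the 4 members changed sign, whereas the medians of the HSP40, BAG, heat shock factor and filament lists did. With pseudocounts of 0.1 and 0.01 the number of genes at least 2-fold higher rose from 61 to 95 and 105, and that of genes at least 2-fold lower from 57 to 103 and 112. With a mean of at least 5 FPKM the numbers were 38 and 25. Rescaling to a common sum without the gene of highest value, which held 35.4% of the summed FPKM in CTRL cells and 25.8% in pLVX-*RBP4* cells, shifted the median of all genes to -0.11. There the difference was 2.11 for *HSPB1*, 1.93 for ENSSSCG00000028568, -0.23 for *HSPB6* and -0.41 for *HSPB8*. The list medians and numbers of higher genes were 0.064 for HSP70 and HSP110, -0.023 and 5 for HSP40, 0.00064 and 7 for HSP90 and chaperonins, -0.092 and 1 for BAG and co-chaperones, -0.071 and 0 for heat shock factors, 0.045 and 9 for heat shock factor target genes, -0.23 and 0 for the p38 list, and -0.090 and 2 for filaments. After upper quartile scaling 5 BAG and co-chaperone genes, 0 p38 genes and 5 filament genes were higher. In the p38 list 2 genes were higher after rescaling to a common sum and without a filter. The share of all genes that were higher was not computed under these settings, so nothing is read from these numbers. The order of the 4 levels did not change after rescaling to a common sum.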

Other observations

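*HSPB9*, a small heat shock protein gene known from testis, was below the limit of 1 FPKM, with 0.372 FPKM in CTRL cells and 0.164 FPKM in pLVX-*RBP4* cells. *CRYAA*, *ODF1* and *HSPB11* had no row under these names and were not analysed here.

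Among 9153 other genes with a mean of at least 5 FPKM and values above 0 in both groups, the gene whose difference was nearest to that of *HSPB1* was ENSSSCG00000028568, at a distance of 0.18 on the log2(FPKM + 1) scale over the 2 group values. The next 4 had no symbol in the tables used. ENSSSCG00000022063 had 8.21 FPKM in CTRL cells and 32.0 FPKM in pLVX-*RBP4* cells, ENSSSCG00000028833 had 16.3 and 58.3 FPKM, ENSSSCG00000026406 had 29.6 and 97.0 FPKM, and ENSSSCG00000016766 had 8.11 and 27.0 FPKM. With 2 values per gene, such a likeness rests on a single ratio. *HSPB1* and ENSSSCG00000028568 were both chosen by these values, and how reads that match both loci were divided is not known. Nothing is therefore read from their nearness.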
